A study of Mus musculus with 8 samples.

Results

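Jak2 and Sec31a are the mouse genes whose human counterparts are joined in the SEC31A-JAK2 fusion. JAK2 is a cytoplasmic tyrosine kinase that sits on cytokine receptors and passes their signal to STAT transcription factors, and it is needed for the growth of blood cell precursors. SEC31A is an outer-shell protein of the COPII coat, which carries cargo from the endoplasmic reticulum to the Golgi apparatus. In the fusion the first part of SEC31A is joined to the part of JAK2 that holds the kinase domain, so the 5′ portion of one gene and the 3′ portion of the other are the stretches it shares with the genome. A fusion of this kind is usually brought into marrow cells as a cDNA, which has no introns, and such a copy could add signal only at probes that lie in exons. The labels name neither the vector nor the species of the cDNA.

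The 2 loci were read by array comparative genomic hybridisation on 8 Agilent mouse arrays, which compare the DNA of a sample with that of a reference at each of 235402 probes. On mouse build mm9, 8 probes lie in chr19:29326000-29388000, which holds Jak2, and 6 probes lie in chr5:100790000-100846000, which holds Sec31a. These 14 probes were chosen by position alone and are numbered below in the order of their coordinates. The baseline on each side was 300 kb, with 79 flanking probes around Jak2 and 55 around Sec31a. Each probe covers 60 bases, and neighbouring probes within a locus start 4.52 to 11.8 kb apart at Jak2 and 8.04 to 12.2 kb apart at Sec31a. In the RefSeq annotation Jak2 lies on the plus strand and Sec31a on the minus strand, so higher coordinates are towards the 3′ end of Jak2 and towards the 5′ end of Sec31a. That annotation is on another assembly, GRCm38.p6, so it was used for strand and gene order and for no position. Exon positions on mm9 and probe sequences were not used here, and no probe is described below as exonic or intronic.

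All 8 samples were genomic DNA of Balb/c mice with the SEC31A-JAK2 genotype after bone marrow transplantation, and a wild-type animal of the same strain, labelled normal, gave the reference. T-lymphoblastic lymphoma (T-LBL) of primary recipients was sampled from spleen in M7 and M9 and from a neck lymph node in M12. M10 was bone marrow of a primary recipient with myeloid hyperplasia. M12.49, M12.52 and M12.53 (pancreas) and M12.50 (neck lymph node) were secondary T-LBL derived from mouse 12. No array analysed here held sample DNA without the fusion, and the labels give no age, sex or tumour cell share. The labels put the sample in Cy5 and the reference in Cy3 on every array, with no dye swap. Each DNA was hybridised once, so errors on a single array are standard errors over probes, and p-values between groups measure the spread between these samples, 5 of which come from 1 mouse lineage.

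Values are log2 ratios of sample over reference, centred on the autosomal median of each array. In a pure sample, 3 copies in place of 2 would give 0.58. Arrays differed in quality. The SD between neighbouring probes was 0.47 on M7, 0.43 on M12.52 and 0.22 to 0.28 on the other 6. Reference signal was well above background at 53.01% of the autosomal probes of M7 and at 98.6% to 99.8% on the others. Across the same autosomal probes on each array, the 6 arrays other than M7 and M12.53 correlated with each other at r of 0.27 or more. M12.53 correlated with those 6 at r between −0.51 and −0.21, and M7 correlated with them at r between −0.25 and −0.11. The lowest called loss on chromosome 14 was −3.30 over 5 probes on M12.53, at 53585339-53619254. On the other 6 lymphoma arrays it was −3.34 to −0.50 and lay elsewhere, within 54253650-54827341. With a stricter segmentation (penalty 10) the lowest loss of M12.53 overlapped that stretch, with −2.63 over 65 probes at 54358152-54837072. A stretch lost on the other lymphoma arrays was thus also called lost on M12.53, so the labelled direction was kept. Most results that rest on M7 are also given without it. The limma fit against the reference is also given without M12.53, and the locus means with the sign of M12.53 turned.

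Endogenous Jak2 showed no called gain or loss in any of the 8 samples, but a single-copy gain of either gene alone was too short to be called. A single-copy loss could also go uncalled, above all at Sec31a and on the noisier arrays M7 and M12.52. The mean log2 ratio of the 8 Jak2 probes was 0.01 ± 0.11 (SE over probes) in M9, −0.06 ± 0.09 in M12 and −0.09 ± 0.13 in the myeloid sample M10. In the secondary lymphomas M12.53 had 0.09 ± 0.13, M12.52 had −0.0023 ± 0.19, M12.50 had −0.02 ± 0.07 and M12.49 had −0.02 ± 0.12. These 7 samples therefore lay between −0.09 and 0.09. M7 stood above them at 0.35 ± 0.16, but 3 of its 8 probes had a reference signal not well above background, and over the others its mean was 0.07. On M7, 7.37% of the 27672 autosomal windows of 8 consecutive probes had a mean as high or higher, and the locus with all 8 probes lay 1.68 window SDs above 0. On the other 7 arrays it lay within −0.74 to 0.69 window SDs. Over all 8 samples the Jak2 mean was 0.03 ± 0.14 (SD, n = 8), and without M7 it was −0.01 ± 0.06 (n = 7).

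The flanks of Jak2 were close to the gene on the same scale. In the RefSeq gene order of GRCm38.p6 the neighbours on the low-coordinate side are Rcl1, Ak3, Cdc37l1 and Plpp6. On the other side lie Insl6 and Rln1, of the relaxin family, Plgrkt, and then Cd274 and Pdcd1lg2, which encode the immune checkpoint ligands PD-L1 and PD-L2. The low-coordinate flank lay between −0.04 and 0.03 on 7 arrays and at 0.14 on M7. The high-coordinate flank ran from −0.23 on M12.52 to 0.07 on M7. Jak2 minus the median of its flanks was 0.36 on M7 and between −0.10 and 0.12 on the other 7 arrays, above 0 on 4 of 8, with a mean of 0.04 ± 0.14 (SD, n = 8). Of all 27668 windows of 8 probes, 1.37% were below and 1.48% above the median of their flanks on all 8 arrays, neither of which held for Jak2, and 23.1% had a mean over arrays as high or higher relative to their own flanks.

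Sec31a likewise carried no called gain or loss, with the same limit on short changes, and its probes lay slightly below 0 in most samples. The mean of its 6 probes was −0.15 ± 0.14 (SE over probes) in the myeloid sample M10, and among primary lymphomas 0.0031 ± 0.16 in M12, −0.20 ± 0.08 in M9 and −0.45 ± 0.61 in M7. Among the secondary lymphomas M12.53 had 0.0049 ± 0.12, M12.50 had −0.14 ± 0.07, M12.52 had −0.19 ± 0.10 and M12.49 had −0.26 ± 0.10. The large error of M7 came with 1 probe at −3.44. Without that probe, the one nearest the 5′ end of the gene, the M7 mean was 0.15 and the M12 mean was −0.14. In units of the SD of 36900 windows of 6 probes, the full locus lay between −1.93 on M12.49 and 0.04 on M12.53. Over the 8 samples the mean was −0.17 ± 0.14 (SD, n = 8), and without M7 it was −0.13 ± 0.10 (n = 7). It was −0.11 ± 0.11 (n = 8) over probes well above background only and −0.056 ± 0.046 (n = 8) with normexp background correction.

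Relative to its own flanks Sec31a was lower on 8 of 8 arrays, by a small amount. Its neighbours in the RefSeq order are Tmem150c, Enoph1 and Hnrnpdl on the low-coordinate side, and Lin54, Cops4, Plac8, Coq2 and Hpse on the other. The difference was −0.51 on M7, −0.12 on M9, −0.10 on M10 and −0.07 on M12. M12.49 had −0.27, M12.52 had −0.21, M12.50 had −0.06 and M12.53 had −0.04, so every value was negative and several were close to 0. The mean was −0.17 ± 0.16 (SD, n = 8). Of all 36886 windows of 6 probes, 1.34% were below the median of their flanks on all 8 arrays and 1.48% above it. The mean of Sec31a was among the lowest 1.43%. That rank includes M7 at −0.51 and was not taken without M7 or with normexp, where the mean was closer to 0. Without the probe nearest the 5′ end the difference was −0.13 ± 0.12 and negative on 7 of 8 arrays (range −0.28 to 0.08). Without M7 it was −0.13 ± 0.09 (n = 7), and with normexp background correction in place of the processed signals it was −0.03 ± 0.10 (n = 8).

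Segmentation of the chromosomes placed no boundary near either gene, but a single-copy change confined to either gene could be too short to set one. On every array Sec31a lay in 1 segment that spanned chromosome 5 from 3008399 to 152536960, with a segment mean between −0.03 and 0.05. Jak2 lay in a segment that spanned most or all of chromosome 19, with a mean between −0.04 and 0.06. A call needed 5 probes or more and a segment mean at least 0.25 away from 0, and none overlapped either locus or its 300 kb flanks on any of the 8 arrays. Called segments held 0.091% of the autosomal probes of M7, 0.0777% of M9, 0.00813% of M10 and 0.318% of M12. The shares were 0.309% for M12.53, 0.208% for M12.49, 0.191% for M12.52 and 0.13% for M12.50, so a locus outside every call is what most of the genome showed. The count over the loci stayed at 0 with penalties of 3 and 10 and with call thresholds of 0.15 and 0.4.

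With the processed signals, no difference between secondary and primary T-LBL at either locus was larger than the spread between samples, but at Jak2 this depended on the background correction. The Jak2 mean was 0.10 ± 0.22 (SD, n = 3) in primary and 0.01 ± 0.05 (SD, n = 4) in secondary lymphomas. Their difference was −0.09 (two-sided exact permutation p = 0.629, adjusted over 4 tests 0.657). The groups overlapped, and the sign turned without M7 (0.04). With normexp background correction they did not overlap. Jak2 was then 0.17 in M9, 0.13 in M7 and 0.11 in M12, and −0.0077 to 0.039 in the secondary lymphomas. That difference of −0.11, and −0.098 relative to the flanks, each had an exact permutation p of 0.0286 (adjusted 0.0571), the smallest that 35 splits allow. The Sec31a mean was −0.21 ± 0.22 (n = 3) and −0.15 ± 0.11 (n = 4), a difference of 0.07 (exact permutation p = 0.629, adjusted 0.657), which without M7 was −0.05. Relative to the flanks the differences were −0.09 for Jak2 (exact permutation p = 0.514) and 0.09 for Sec31a (exact permutation p = 0.657), both with an adjusted p of 0.657. Scan day and slide held more than 1 group in some cases. Within the third scan day, M12.49 and M12.52 minus M9 was −0.02 for Jak2 and −0.03 for Sec31a. M12.50 and M9 carry the same slide barcode, and M12.50 minus M9 was −0.02 for Jak2 and 0.05 for Sec31a.

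The fusion holds the 3′ part of JAK2 and the 5′ part of SEC31A, so the probes towards one end of each locus were also compared with those towards the other, a comparison added after the files were seen. At Jak2 the 4 probes towards the 3′ end minus the 4 towards the 5′ end gave 0.52 on M7 and 0.23 on M12.53, and −0.18 to −0.03 on the other 6 arrays. The mean was 0.02 ± 0.24 (SD, n = 8; exact sign permutation p = 0.891, adjusted over the 2 loci 0.945), and without M7 it was −0.06. At Sec31a the 3 probes towards the 5′ end minus the other 3 gave 0.51 on M10, 0.49 on M12, 0.27 on M12.53, 0.26 on M12.49, 0.22 on M12.50 and 0.06 on M12.52. The same difference was −0.19 on M9 and −1.41 on M7. The 5′ probes were thus higher than the other 3 on 6 of 8 arrays, with a mean difference of 0.03 ± 0.62 (SD, n = 8, exact sign permutation p = 0.945). This difference also holds low values towards the 3′ end. Probes 1, 2 and 3 were below 0 on 7, 8 and 6 of 8 arrays. The 5′ probes 4, 5 and 6 were above 0 on 2, 6 and 3. On M12 the difference includes probe 6 at 0.74, where both dyes were low. How many other windows split in this way was not counted. Without M7 the mean was 0.23, and the smallest adjusted p over all alternatives was 0.0938. The smallest p that the 256 sign patterns allow is 0.0078. The division follows the probes, not the breakpoint of the fusion, whose position is not in the labels.

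Single probes varied more than the locus means. On one array at a time, 6 of the 112 member values were at 0.58 or more and 5 were at −0.58 or less. M7 held 3 of the high Jak2 values, at probes 4 (0.75), 6 (0.93) and 7 (0.80). On that array 15.2% of all autosomal probes passed the same value, so this share is read against a high background. Reference signal was not well above background at exactly these 3 Jak2 probes, and against the lowest signal counted as above background only probe 4 kept a bound, at least 1.17-fold over the reference. The M7 mean over the other Jak2 probes, which were well above background in both dyes, was 0.07. The other high Jak2 value was probe 8 on M12.52 at 0.79, where 7.09% of autosomal probes passed. Low values were probe 5 on M10 at −0.71, where 3.34% passed, and probe 3 on M12.52 at −0.82, where 11.5% passed. At Sec31a the values at 0.58 or more were probe 1 on M7 (0.74) and probe 6 on M12 (0.74, where 1.36% passed), and those at −0.58 or less were probe 6 on M7 (where 7.5% passed) and probe 1 on M10 and M12.49 (2.47%). No member reached 0.58 on M9 (0.957% of probes), M10 (1.62%), M12.49 (0.668%), M12.50 (0.646%) or M12.53 (2.14%). None reached −0.58 on M9 (3.22%), M12 (1.64%), M12.50 (1.41%) or M12.53 (1.52%). Over the 8 arrays the mean autosomal share was 3.71% for the higher side and 4.08% for the lower, against 5.36% and 4.46% of the member values.

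Jak2 probe 8 at 29386948-29387007, the one nearest the 3′ end, was the member with the highest mean. It was 0.79 on M12.52, 0.43 on M12.49, 0.37 on M9, 0.30 on M7, 0.28 on M10, 0.24 on M12, 0.20 on M12.50 and −0.35 on M12.53. It was thus above 0 on 7 of 8 arrays, with M12.53 alone on the other side. The mean over 8 arrays was 0.28 ± 0.31 (SD), a level that 2.60% of autosomal probes reached. Its limma adjusted p was 0.207 (SE 0.10), and over 20 alternatives it ranged from 0.0102 to 0.599. Without M12.53 the mean was 0.37 with a limma adjusted p of 0.0232, in a fit that called 11.5% of all autosomal probes.

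Jak2 probe 3 at 29349566-29349625 ran the opposite way. It was −0.82 on M12.52, −0.53 on M12.49, −0.39 on M10, −0.35 on M12, −0.25 on M9 and M12.50, −0.06 on M7 and 0.21 on M12.53. Again 7 arrays had one sign and M12.53 the other. The mean was −0.30 ± 0.31 (SD, n = 8; SE 0.10) with a limma adjusted p of 0.191, ranging from 0.0171 to 0.599 over 20 alternatives. Among autosomal probes 4.61% had a mean over 8 arrays as low or lower. Without M12.53 the mean of probe 3 was −0.38 with a limma adjusted p of 0.0305, in the same fit that called 11.5% of all autosomal probes.

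The remaining Jak2 probes changed sign among the arrays. Probe 1 at 29331752-29331811, nearest the 5′ end, was 0.56 on M9, 0.54 on M12.52, 0.41 on M12.49, 0.17 on M10, 0.14 on M12 and 0.12 on M12.50, and lay at −0.38 on M12.53 and −0.39 on M7. Probe 2 at 29337807-29337866 was 0.47 on M12.52, 0.25 on M12, and 0.24, 0.23, 0.21, 0.09 and 0.07 on M12.49, M12.50, M10, M9 and M7 in that order, and −0.25 on M12.53. Both probes were thus above 0 on most arrays, with M12.53 below 0 at each. Probe 5 at 29365738-29365797 was −0.13 on M9, −0.25 on M12, −0.30 on M12.50, −0.32 on M12.49, −0.44 on M12.52 and −0.71 on M10, against 0.40 on M7 and 0.48 on M12.53. It was below 0 on the 6 arrays where probe 1 was above 0.

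Jak2 probes 4, 6 and 7 each had M7 as their highest value. Probe 4 at 29358094-29358153 was 0.75 on M7, 0.30 on M12.53 and 0.08 on M12.50, and between −0.13 (M9 and M12.52) and −0.02 (M10) on the other arrays. Probe 6 at 29370256-29370315 was 0.93 on M7, 0.22 on M12.53 and 0.07 on M10, and between −0.41 (M9) and −0.03 (M12.50) elsewhere. Probe 7 at 29376168-29376227 was 0.80 on M7 and 0.45 on M12.53, and between −0.38 (M10) and −0.03 (M9) elsewhere. On these 3 probes the arrays other than M7 and M12.53 were near or below 0, and the means over 8 arrays were 0.09, 0.01 and 0.03. Dim reference signal on M7 was found at these 3 probes and at no other Jak2 probe, and on no other array at any Jak2 probe.

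No member probe passed the test over all 8 arrays. In the limma fit against the reference, 0 of 14 member probes had an adjusted p under 0.05, beside 0% of the 221455 autosomal probes. At an unadjusted p under 0.05 there were 3 members (Jak2 probes 3 and 8, Sec31a probe 2) and 41123 probes in all. Without M12.53 the fit called 4.92% of all probes higher and 6.58% lower, and the members called were 1 of 14 higher (Jak2 probe 8) and 1 of 14 lower (Jak2 probe 3). With so many probes called genome-wide, these counts are near the background. In the 300 kb flanks the same fit called 19 of 134 probes. Between secondary and primary T-LBL limma called 0 of 14 members, beside 0% of all probes, with 0 members and 2192 probes at an unadjusted p under 0.05.

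The probe pattern of Jak2 was turned over on M12.53. At 8 of 8 Jak2 probes M12.53 had the opposite sign to the mean of the 6 arrays other than M7 and M12.53, with r = −0.89 across the 8 probes of a single array. At Sec31a the sign was opposite at 3 of 6 probes, with r = 0.30 across 6 probes. Over all autosomal probes it was opposite at 70.9%, with r = −0.49. At Jak2 the reference dye of M12.53 deviated from the mean of the 6 by 0.655 on average (absolute log2 difference) and the sample dye by 0.222. At Sec31a the same deviations were 0.291 for the reference dye and 0.244 for the sample dye. The part of the reference dye in the Jak2 values was not tested.

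The locus means average over high and low probes and so show little of this reversal. On M12.53 the Jak2 mean was 0.09 while its probes ran from −0.38 to 0.48. On M12.49, from the same lineage, the mean was −0.02 with probes from −0.53 to 0.43. Over the same 14 member probes on each array, M12.49 correlated with M12.50 at r = 0.87 and with M12.52 at r = 0.91. M12.53 correlated with the same arrays at −0.27 and −0.63, and with the parent tumour M12 at −0.42. With the sign of M12.53 turned, Jak2 over the 8 samples was 0.01 ± 0.14 (SD) and Sec31a was −0.17 ± 0.14 (SD).

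At Sec31a the probe nearest the 5′ end, probe 6 at 100844795-100844854, stood apart on M7 and M12. It was −3.44 on M7 and 0.74 on M12, against 0.23 on M10, 0.01 on M12.50, −0.10 on M12.53, −0.13 on M12.52, −0.18 on M9 and −0.24 on M12.49. Only 0.0113% of the probes of M7 were as low and 0.328% of the probes of M12 were as high. The secondary tumours of the M12 lineage did not share the high value of M12. On M7 the sample dye was at −2.72 on the log2 scale relative to its array median and not well above background, while the reference dye was at 0.70, so the reference was at least 8.55-fold over the sample. On M12 both dyes were low, the sample at −1.38 and the reference at −2.14. On the other 6 arrays the sample dye lay between 0.18 and 0.55 and the reference dye between 0.30 and 0.52.

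Further Sec31a probes were mostly a little below 0. Probe 1 at 100795297-100795356, nearest the 3′ end, was −0.24 on M9, −0.32 on M12.52 and M12, −0.44 on M12.53, −0.46 on M12.50, −0.64 on M12.49 and −0.73 on M10. It was 0.74 on M7, where the reference was not well above background and the sample was at least 1.12-fold over it. Probe 1 was thus below 0 on the 7 arrays where both of its dyes were well above background. The share of all autosomal probes with the same sign on those 7 arrays was not counted. Its mean of −0.30 ± 0.45 (SD, n = 8) had a limma adjusted p of 0.269.

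Sec31a probe 2 at 100807541-100807600 was the only member with one sign on all 8 arrays, although on M7 its reference signal was not well above background, which leaves 7 arrays with a usable sign. It was −0.01 on M9, −0.05 on M7, −0.06 on M12.52, −0.15 on M12 and M12.53, −0.16 on M12.50, −0.28 on M12.49 and −0.32 on M10, with a mean of −0.15 ± 0.11 (SD, n = 8) and a limma adjusted p of 0.236 (0.0948 to 0.637 over 20 alternatives). Among all autosomal probes 1.27% were below 0 and 1.43% above 0 on all 8 arrays. No member was above 0 on all 8. Without M12.53, 2 members were above 0 and 2 below 0 on all 7 arrays, beside 6.49% and 7.6% of all probes.

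Probes 3, 4 and 5 of Sec31a had both signs among the arrays. Probe 3 at 100815585-100815644 was 0.20 on M12.53 and 0.10 on M7, −0.06 on M9, −0.14 on M12.50, −0.15 on M10, −0.23 on M12.49, −0.26 on M12 and −0.30 on M12.52. Probe 4 at 100825282-100825341 was 0.40 on M12.53 and 0.05 on M10, −0.10 on M12 and M12.50, −0.15 on M7, −0.30 on M12.49, −0.54 on M12.52 and −0.55 on M9. Both had M12.53 as their highest array. Probe 5 at 100836295-100836354 was the only Sec31a probe above 0 on most arrays, with 0.18 on M12.52, 0.16 on M12.49, 0.13 on M7 and M12.53, 0.11 on M12, 0.04 on M10, −0.01 on M12.50 and −0.14 on M9. Its mean was 0.08 ± 0.11 (SD, n = 8). The limma adjusted p-values of probes 3, 4 and 5 were 0.423, 0.392 and 0.490.

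The profile of each locus across the 8 arrays was also set against windows of as many probes on other chromosomes. The 3 windows most like Jak2 were chr11:62528450-62575292, chr2:70129119-70179344 and chr11:96340852-96397987, each with r = 0.99 over the 8 arrays. For Sec31a they were chr12:76551325-76581055 (r = 0.98), chr10:85228599-85336522 and chr6:98850117-98894606 (r = 0.97 each). They are the highest of 26888 windows for Jak2 and 34592 for Sec31a, and the Jak2 profile turns on M7, the single array with a mean above 0.1. Windows on an array share its noise and its dye quality.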

How the data were processed

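The authors deposited, for each array, processed Cy5 and Cy3 intensities, background-subtracted and dye-normalised per the file headers. The deposited LogRatio column, a log10 ratio of processed Cy5 over Cy3, equals the deposited series table. Per the file headers the software was Feature Extraction 10.5.1.1, and per the submitters' processing notes 9.1.1. Probe positions are on mm9 in 7 files, and M12 (mm8) took them by probe name.

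From these intensities the log2 ratio was computed per spot. Control and outlier-flagged spots were left out, spots of a probe averaged, and each array centred on its autosomal median. Probes were fitted in limma 3.58.1 (R 4.3.3) over 221455 autosomal probes with Benjamini-Hochberg adjustment at 0.05, differences between groups and between the ends of a locus were tested by exact permutation (Python 3.11.15, scipy 1.17.1), and chromosomes were segmented by penalised least squares (penalty 6, at least 3 probes). The limma and segmentation code was tested on simulated data. For segmentation these were losses many times longer than either locus, so that test does not cover changes of locus size. The precision is limited by the number of arrays. Alternatives were mode centring, normexp (offset 50) on the median signals, the series table, dim-probe and outlier filters, flank width, the median over probes, leaving out arrays, scan and slide as blocks, and averaging the mouse 12 lineage. Slides were told apart by the barcode in the file header, and 3 barcodes occur in more than 1 file, scanned on different days. A second use of a slide means the later scan of such a barcode, here M7, M9 and M12.52. Whether these slides were re-used or the barcodes repeat for another reason is not known. Chosen after the files were seen were the comparison of the ends, turning M12.53, leaving out second uses of a slide, and leaving out Sec31a probe 6.

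Every member probe could be named, a flank probe only past the adjusted threshold of a limma fit, and for likeness the 3 windows with the highest correlation. The loci, lists and tests were chosen with earlier results of these data known. Other JAK-STAT and COPII genes were not analysed here, since no table used here gives their mm9 positions.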

Additional observations from a re-analysis of the deposited data

Results flagged for a closer look

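In the 4 secondary lymphomas, 3 of 20 values tested had 1 sample far from the others. A chance rate of about 1 in 20 holds only for samples that vary alike. Over all autosomal probes M12.53 had the opposite sign to the mean of 6 other arrays at 70.9%. How many autosomal probes the same rule would flag was not counted. All 3 values flagged were at Jak2 and in all 3 the sample was M12.53. The Jak2 mean was 0.085 there, against −0.015 to −0.0023 in the other 3. Jak2 probe 5 was 0.48, against −0.44 to −0.30. Jak2 probe 7 was 0.45, against −0.17 to −0.08. The 3 values come from 1 locus on 1 array and share probes.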

How the results depend on the processing

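No paired analysis was possible because the replicate numbers only follow the order of deposit and pair no samples. The 4 means over all arrays moved by less than the SD between arrays under all 20 alternatives. That SD is wide, and the Sec31a means changed much in size. The Sec31a mean ran from −0.226 to −0.056 and Sec31a minus flanks from −0.216 to −0.033. No difference between groups or ends had an adjusted p under 0.05 under any alternative, but some could not reach it. With a lymphoma array left out, the splits between groups were too few for a p under 0.05. The same held for the ends with the mouse 12 lineage averaged. With normexp, though, both Jak2 group differences (−0.112, and −0.098 relative to the flanks) reached the smallest exact permutation p that 35 splits allow, 0.0286 (adjusted 0.0571). Without second uses of a slide, M12 was the only primary lymphoma left, set against secondary tumours derived from it. Differences between groups turned sign as follows. For the Jak2 mean they were 0.0087 with probes well above background only, 0.044 without M7 and M12.52 and 0.080 without second uses of a slide (leaving out 1 array: −0.167 to 0.039). For Jak2 minus flanks they were 0.029 and 0.065 in the last 2 of these settings (−0.171 to 0.024). For the Sec31a mean they were −0.092 with probes well above background, −0.057 with the median over probes, −0.035 without M7 and M12.52, −0.134 without second uses of a slide, −0.090 without the 5′ probe and −0.030 within scan day 3 (−0.051 to 0.173). For Sec31a minus flanks the same 6 settings gave −0.114, −0.036, −0.030, −0.058, −0.068 and −0.120 (−0.052 to 0.171). The difference between the ends of Jak2 was −0.059 without M7 and M12.52, −0.047 without second uses of a slide and −0.041 with M12.53 turned (−0.055 to 0.044). That of Sec31a was −0.208 with the mouse 12 lineage averaged and −0.043 with M12.53 turned (−0.043 to 0.231). The cause was not tested.

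Against the reference, member probes called were 3 with normexp (27.5% of all probes called), 4 with M12.53 turned (17.5%) and 0 to 2 when 1 array was left out. The 2 were called without M12.53, where 11.5% of all probes were called. With the slide as a random block, 3.53% of all probes and 0 members were called. Between groups 7 of all probes were called without M12. With scan day as a block the calls were 240 higher and 66 lower, and with slide as a block 49 and 83, with 0 members in each. Of the 112 member values, 14 were higher and 12 lower past a log2 ratio of 0.4, and 0 and 1 past 1. The mean autosomal shares over the arrays were 8.89% higher and 10.1% lower past 0.4. Past 1 these shares were 0.839% and 0.702%. Dim reference signal on M7 bears on 5 of the 14 member probes there.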
